A study of Mus musculus with 12 samples.

Results

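The effect examined here is the tumour effect common to both cell lineages: the average difference in circular RNA between the tumour lines and the non-tumour lines, with lineage held as a block. All 12 libraries of the series entered it. The tumour lines were 4T1 (mouse breast cancer cells) and B16F10 (mouse melanoma cells), and the non-tumour lines were Eph4-ev (mouse breast epithelial cells) and Melan-a (mouse melanocytes), each with 3 libraries. 4T1 and Eph4-ev form the mammary lineage, B16F10 and Melan-a the melanocyte lineage, and the labels give no treatment, genotype or time. The circRNAs were those listed in the tables of both lineages, 8928 of the 13474 in either table. All 8928 had mammary reads, 5519 also had melanocyte reads and 3409 had none. The 3982 circRNAs listed in the melanocyte table alone stayed outside the comparison.

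Circular RNAs arise by back-splicing, in which the end of an exon is joined to the start of the same or an earlier exon of its transcript. The closed ring has no free ends, so the exonuclease RNase R, which degrades RNA from a free end, leaves most rings intact, and sequencing reads that cross the back-splice junction identify each ring. Rings are stable and can accumulate in cells that divide slowly, and the amount of a ring follows both the transcription of its host gene and the choice between back-splicing and linear splicing. A few, such as that of Zfp609, have been studied in cultured cells, while no function is known for most.

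Depth ranged from 15572 to 56649 junction reads per library, and in each lineage every non-tumour library was deeper than every tumour library: 1 read was worth 64.2 RPM (the authors' scaling of each count by its library total) in 4T1 replicate 1 and 17.7 RPM in Eph4-ev replicate 2. The joined rows held 99.7% to 99.8% of the reads in 5 of the 6 mammary libraries, 96.6% in Eph4-ev replicate 3, and 81.5% to 83.7% in the melanocyte libraries. The labels do not say whether the 3 libraries of a line came from separate cultures, so p-values measure the spread between these libraries. Each lineage supplies 1 line per state. What sets the lines apart besides tumour state cannot be told apart from it, and with the 2 line pairs as replicates the smallest exact sign-flip p (two-sided) is 0.5. RPM is a share of the junction reads, and no linear RNA was measured here: fewer cells with a ring, less of the ring per cell and lower host transcription cannot be told apart.

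Few circRNAs were called for the average effect. Of 1518 circRNAs with enough reads to be tested, 25 (1.65%) were higher and 44 (2.90%) were lower in the tumour lines (edgeR quasi-likelihood test with lineage as a block, called at an adjusted p under 0.05), or 4.55% in either direction. An unadjusted p under 0.05 was reached by 275. The median log2 fold over all tested circRNAs was -0.14 with TMM scaling, -0.04 with RLE factors and 0.00 with scaling by total reads alone, so folds are relative to a scale that can shift by this much. Of the 25 higher calls, 22 had fitted folds above 0 in both lineages and the other 3 had no melanocyte reads at all. Of the 44 lower calls, 37 had folds below 0 in both lineages and 7 had no melanocyte reads. For these 10, the call rests on the mammary libraries alone. Among all tested circRNAs, 66 (4.35%) had no melanocyte reads.

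More circRNAs were called within the mammary than within the melanocyte lineage. Tested within its own lineage in a fit with 4 line means, 4T1 differed from Eph4-ev in 292 of the same 1518 circRNAs (19.2%) and B16F10 from Melan-a in 44 (2.90%). The mammary calls were 93 higher (6.13%) and 199 lower (13.1%) in the tumour line, the melanocyte calls 22 each way (1.45%). The numbers of the 2 lineages are not on equal terms. Every joined row had mammary reads, the Eph4-ev libraries were the deepest, and 656 circRNAs passed the filter when it was applied in each lineage. The part of depth and row choice in these numbers was not tested. In 3 circRNAs both lineages were higher on their own test, in 10 both were lower, and in 4 both were called in opposite directions. Of the 1452 with reads in both lineages, 738 had fitted folds of 1 sign and 714 of opposite signs. Across these circRNAs, which are not independent replicates, the folds of the 2 lineages had a Pearson correlation of 0.06 and a Spearman correlation of 0.05, given as a description. The effect differed between the lineages for 163 circRNAs (10.7%; edgeR interaction test), 136 of them with folds of opposite sign, and for 100 without Eph4-ev replicate 2. In 105 (6.92%) the melanocyte fold was above the mammary fold and in 58 (3.82%) below it. This test was called for 1 of the 25 higher and 4 of the 44 lower circRNAs. Those were chosen by a fit in which unequal effects add to the spread, so their number does not bear on how alike the effects are. In addition, 3 of the higher and 7 of the lower had no melanocyte reads, which leaves their interaction without a usable estimate.

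**Figure D1:**
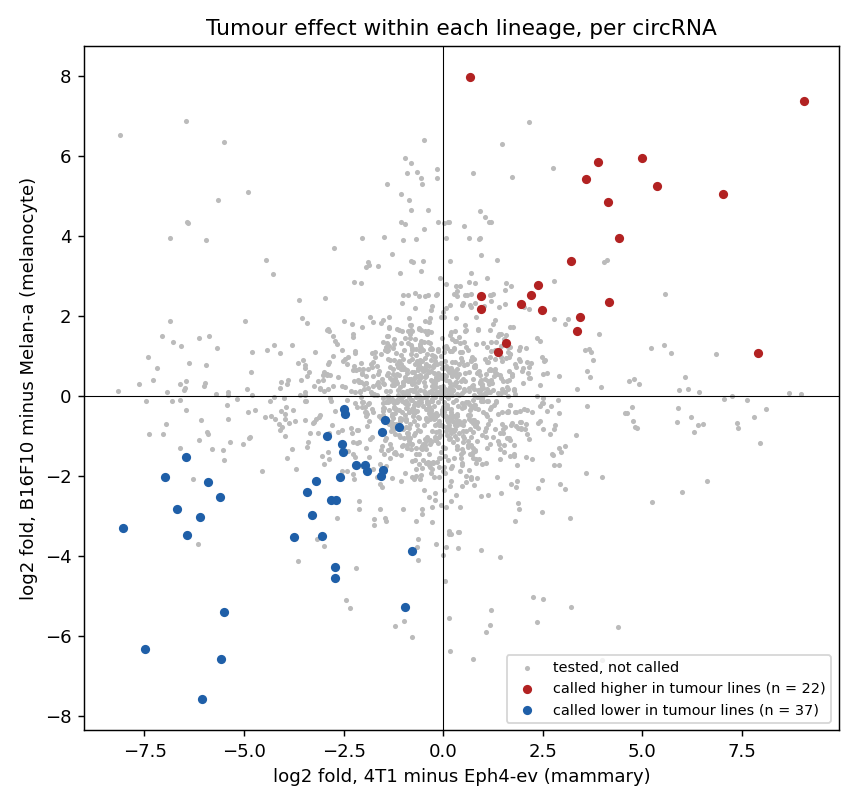
Fitted log2 fold within the mammary lineage (horizontal axis, 4T1 minus Eph4-ev) against that within the melanocyte lineage (vertical axis, B16F10 minus Melan-a), 1 point per tested circRNA with reads in both lineages. The 22 circRNAs called higher lie in the upper right and the 37 called lower in the lower left, while the 1452 points as a whole fill all 4 quadrants; folds of circRNAs at 0 reads in a line depend on the fit's prior count.

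The number of calls depended on how replication was treated. With counts summed per line, which leaves 1 residual degree of freedom, edgeR called 1 circRNA higher (Esyt2) and 0 lower, and 46 of 1518 had an unadjusted p under 0.05, where DESeq2 and limma-voom on the libraries called 56 and 47 lower. With the line as a random effect (limma-voom, estimated correlation 0.21 between libraries of a line), 15 were higher and 19 lower. The mean of the 2 within-lineage effects, which tolerates unequal responses, called 61 higher and 115 lower. Leaving out a library of the mammary lineage reduced both counts by more than 1.5 times: to 9 and 17 without 4T1 replicate 1, 15 and 23 without replicate 2, 13 and 21 without replicate 3, 15 and 20 without Eph4-ev replicate 1, 11 and 15 without replicate 2, and 12 and 19 without replicate 3. Without any 1 melanocyte library, 18 to 27 were higher and 34 to 46 lower. In all 12 of these fits, 7 higher circRNAs kept their call, among them those of Fto, Vars, Vrk1, Mtcl1, Map2k5 and Nup155. So did 13 lower ones, from Zfp609, Vps45 (2 circRNAs each), Alg12, Arid1a, Rad23b, Tacc2, Mpzl1, Gbe1, Zfpm2, Enah and Foxo1.

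**Figure D2:**
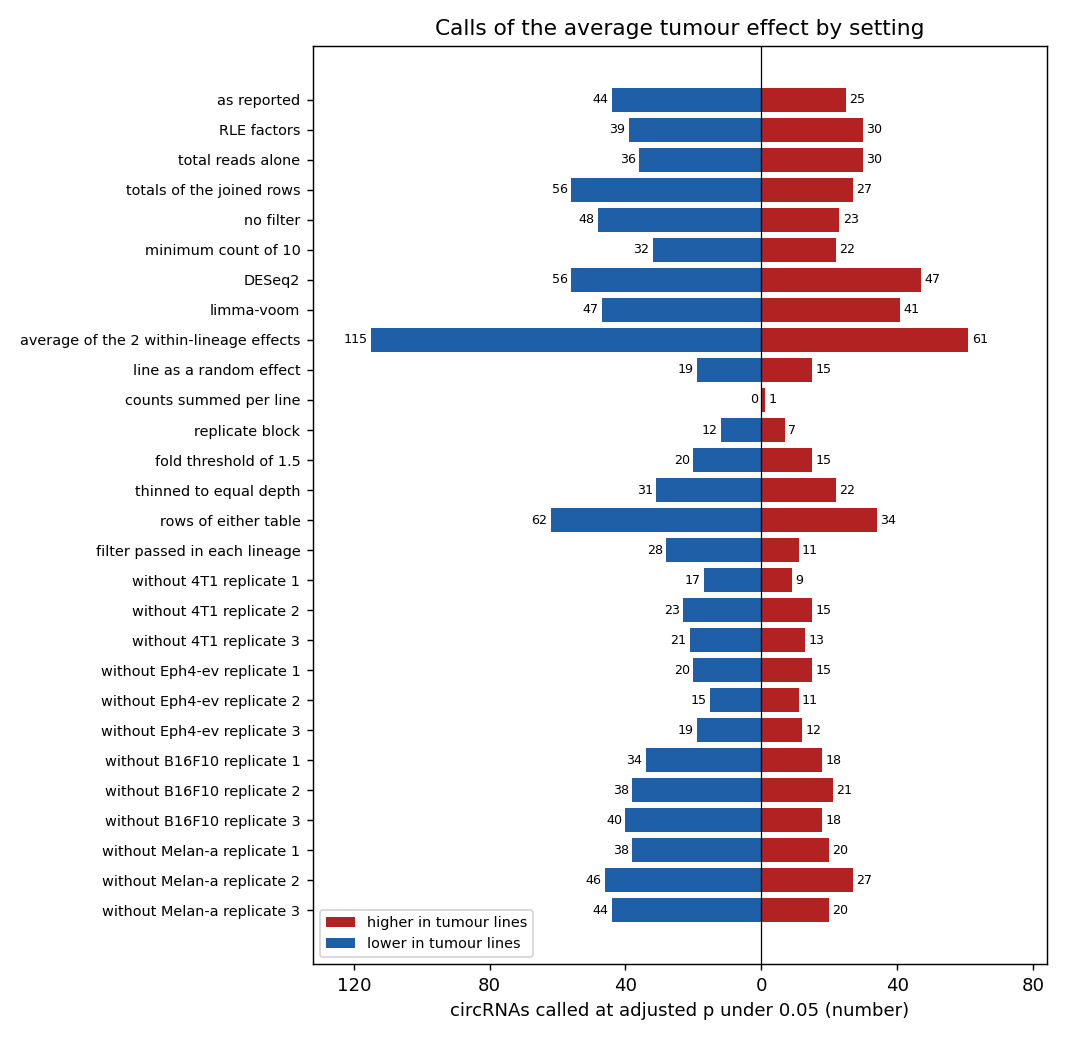
Number of circRNAs called higher (red, to the right) and lower (blue, to the left) in the tumour lines, 1 bar per setting of the analysis. The reported fit gives 25 and 44, the sum per line 1 and 0, and the mean of the within-lineage effects 61 and 115.

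The junctions below identify rings that kept their call in all 12 fits that leave out a library. All of these rings lost it with counts summed per line. Lower-case letters are the last 15 bases of the ring's final exon and capitals the first 15 bases of its first exon, 5′ to 3′ on the transcript strand, from the GENCODE M21 transcripts on GRCm38 (mm10). The first 3 rings were higher in the tumour lines and the others lower. They were from Vars (chr17:35013265-35013747, plus strand, exons 21 to 22), Vrk1 (chr12:106036540-106062808, plus, exons 2 to 11) and Map2k5 (chr9:63293524-63322267, minus, exons 8 to 11). The lower rings were from Zfp609 (chr9:65794622-65795495, minus, exon 2, and chr9:65730976-65795495, exons 2 to 3), Alg12 (chr15:88811297-88812159, minus, exons 6 to 7), Arid1a (chr4:133719537-133723051, minus, exons 2 to 4), Rad23b (chr4:55366777-55370472, plus, exons 2 to 4) and Tacc2 (chr7:130663016-130674739, plus, exons 4 to 5). Both Zfp609 rings begin at the same base, so their capitals are identical and only the lower-case side tells them apart.
Vars: ggagtttccttgcagTCAGAAGACCTCAGT
Vrk1: agaccagcctcaaagTGAAGATGCCCCGTG
Map2k5: cagaattcatggatgATGAATGAACAAGAC
Zfp609 exon 2: gtcaagtctgaaaagCAATGATGTTGTCCA
Zfp609 exons 2 to 3: aggaaacagaagatgCAATGATGTTGTCCA
Alg12: aggctgcacctatatGGCTGACGGTTGCTG
Arid1a: ccctccagcttgcctTCATCCAGTCCAATG
Rad23b: agcaccagctgacagGTAAAGGCATTGAAA
Tacc2: caagaacgaacccagTATCCCTGGAACTGA

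Among RNA regulators, the ring of Fto, an RNA demethylase, was higher in both tumour lines. Its reads numbered 4, 6 and 23 in 4T1 against 0, 0 and 2 in Eph4-ev, and 59, 40 and 37 in B16F10 against 0, 8 and 5 in Melan-a. Every tumour library stood above every non-tumour library of its lineage in RPM, and B16F10 held the most, with 2508 ± 388 RPM (SD, n = 3) against 370.2 ± 132 in 4T1. The log2 fold was 4.09 with an SE of 0.58 (edgeR adjusted p = 0.000553), and each lineage passed on its own (adjusted p = 0.00131 mammary, 0.000453 melanocyte).

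Valyl-tRNA synthetase, encoded by Vars, loads valine onto its transfer RNA. Its ring had 32, 23 and 75 reads in 4T1, 5, 23 and 16 in Eph4-ev, 21, 18 and 16 in B16F10, and 1, 8 and 3 in Melan-a. The tumour libraries were above the non-tumour libraries of the same lineage throughout, at 1678 ± 379 against 264 ± 155 RPM in the mammary and 1023 ± 56.7 against 132 ± 99.9 RPM in the melanocyte lineage (SD, n = 3). The log2 fold was 2.56 with an SE of 0.43 (edgeR adjusted p = 0.00182), and the effect was called in each lineage alone (0.00212 and 0.00776). Nup155 encodes a scaffold protein of the nuclear pore. Its ring of exons 21 to 22 (chr15:8139851-8141359) had 14, 17 and 30 reads in 4T1 against 7, 11 and 2 in Eph4-ev, and 9, 17 and 16 in B16F10 against 7, 3 and 4 in Melan-a. The groups did not overlap in RPM in either lineage, and the log2 fold was 2.32 (SE 0.48, edgeR adjusted p = 0.00975).

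Of the signalling genes, Vrk1 encodes a nuclear kinase active in cell division and Map2k5 the kinase MEK5, which activates ERK5. The Vrk1 ring had 8, 11 and 28 reads in 4T1, 1, 2 and 2 in Eph4-ev, 4, 7 and 1 in B16F10, and none in Melan-a. The log2 fold was 4.27 (SE 0.76, edgeR adjusted p = 0.00258). The Map2k5 ring had 8, 10 and 29 reads in 4T1, 5, 0 and 2 in B16F10 and none in the 6 non-tumour libraries. Pooled over both lineages, it was at least 33.7-fold higher in the tumour lines, against a floor of 3 counts over those 6 libraries (edgeR adjusted p = 0.00668). This bound ignores the lineage block and rests mostly on 4T1, with 47 reads against 7 in B16F10. Summed for the host, Map2k5 was not called in the melanocyte lineage alone (edgeR adjusted p = 0.137). In B16F10 replicate 2 the Map2k5 ring was not detected either, so the melanocyte lineage overlapped at 0 reads.

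Among genes of the cytoskeleton, Mtcl1 encodes a microtubule crosslinking protein and Arhgap10 a GTPase-activating protein. The Mtcl1 ring (chr17:66436080-66438391, exons 2 to 3) had 10, 30 and 73 reads in 4T1 and none in the other 9 libraries. Its fold was at least 70.6 by the same floor (edgeR adjusted p = 0.00258), and nothing in the melanocyte lineage bears on it. DESeq2 and the average of the within-lineage effects did not call it. The Arhgap10 ring (chr8:77450693-77450923, exons 2 to 3) had 37, 25 and 31 reads in 4T1, 17, 22 and 11 in Eph4-ev, 13, 6 and 8 in B16F10, and 1, 4 and 3 in Melan-a. It was higher in both lineages without overlap in RPM (log2 fold 2.10, SE 0.45, edgeR adjusted p = 0.0115). It lost its call without 4T1 replicate 1, without a filter and with line as a random effect.

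Among the lower circRNAs, the ring of exon 2 of Zfp609, a zinc finger gene whose ring has been studied in muscle cells, had the smallest adjusted p of all. It had 14, 17 and 46 reads in 4T1 against 332, 392 and 397 in Eph4-ev, and 3, 9 and 9 in B16F10 against 135, 89 and 133 in Melan-a. The levels were 963 ± 66.0 and 6874 ± 299 RPM in the mammary lineage and 407 ± 222 and 4441 ± 1550.1 RPM in the melanocyte lineage (SD, n = 3), with wide gaps between the groups. The log2 fold was -3.25 with an SE of 0.30 (edgeR adjusted p = 2.83e-06), and both lineages passed alone with folds of -3.04 (SE 0.33) and -3.50 (SE 0.38). The longer Zfp609 ring had 17, 13 and 11 reads in Eph4-ev, 14, 40 and 9 in Melan-a and none in the 6 tumour libraries. It was at least 18.5-fold lower in the tumour lines (edgeR adjusted p = 0.00182).

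Of the metabolic genes, Alg12 encodes a mannosyltransferase of N-glycan synthesis and Gbe1 the glycogen branching enzyme. The Alg12 ring had 6, 16 and 19 reads in 4T1, 108, 116 and 126 in Eph4-ev, 51, 58 and 39 in B16F10, and 267, 170 and 285 in Melan-a. It was the most abundant of the lower calls named here in Melan-a, at 9015 ± 3437 RPM against 2769 ± 576 in B16F10 (SD, n = 3). The Alg12 ring fell by 1.93 on the log2 scale (SE 0.28, edgeR adjusted p = 0.000553), and its libraries did not overlap in either lineage. The Gbe1 ring (chr16:70433545-70441319, exons 4 to 7) had 4, 0 and 3 reads in 4T1, 23, 30 and 28 in Eph4-ev, 26, 21 and 18 in B16F10, and 155, 83 and 149 in Melan-a. The levels again did not overlap within a lineage, and the log2 fold was -2.21 (SE 0.39, edgeR adjusted p = 0.00249).

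Of the genes that act on chromatin and DNA, Arid1a encodes a subunit of the BAF remodelling complex and Rad23b a damage sensor of nucleotide excision repair. The Arid1a ring had no read in 4T1 and 1 in B16F10 replicate 2, against 7, 7 and 14 in Eph4-ev and 23, 24 and 30 in Melan-a. Pooled over 6 libraries a state and scaled by total reads, it was 56.0-fold lower in the tumour lines (95% exact counting interval 9.84 to 2233; edgeR adjusted p = 0.000553). The Rad23b ring had no read in 4T1 and 1 in each B16F10 library, against 60, 55 and 50 in Eph4-ev and 14, 9 and 23 in Melan-a. The pooled ratio was 37.5-fold lower (12.7 to 183; edgeR adjusted p = 0.000574). Reads carry no molecular identifiers, so these intervals and the floors cover counting error only. Arid1a and Rad23b are both near the detection limit in the tumour lines, and neither ring overlapped between states.

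The other lower calls kept in every fit that leaves out a library include rings of Tacc2 and Mpzl1. Tacc2 encodes a centrosome-associated coiled-coil protein and Mpzl1 a cell-surface glycoprotein that binds the phosphatase SHP2. The Tacc2 ring had 46, 25 and 41 reads in Eph4-ev, 4, 7 and 14 in Melan-a and none in the tumour lines, and was at least 24.4-fold lower there (edgeR adjusted p = 0.00166). The Mpzl1 ring (chr1:165604610-165608604, exons 2 to 4) had no read in 4T1 and 0, 4 and 2 in B16F10, against 18, 12 and 24 in Eph4-ev and 27, 58 and 23 in Melan-a. Both were below the non-tumour libraries of their lineage in every tumour library. The log2 fold of Mpzl1 was -4.07 (SE 0.69, edgeR adjusted p = 0.00182).

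**Figure D3:**
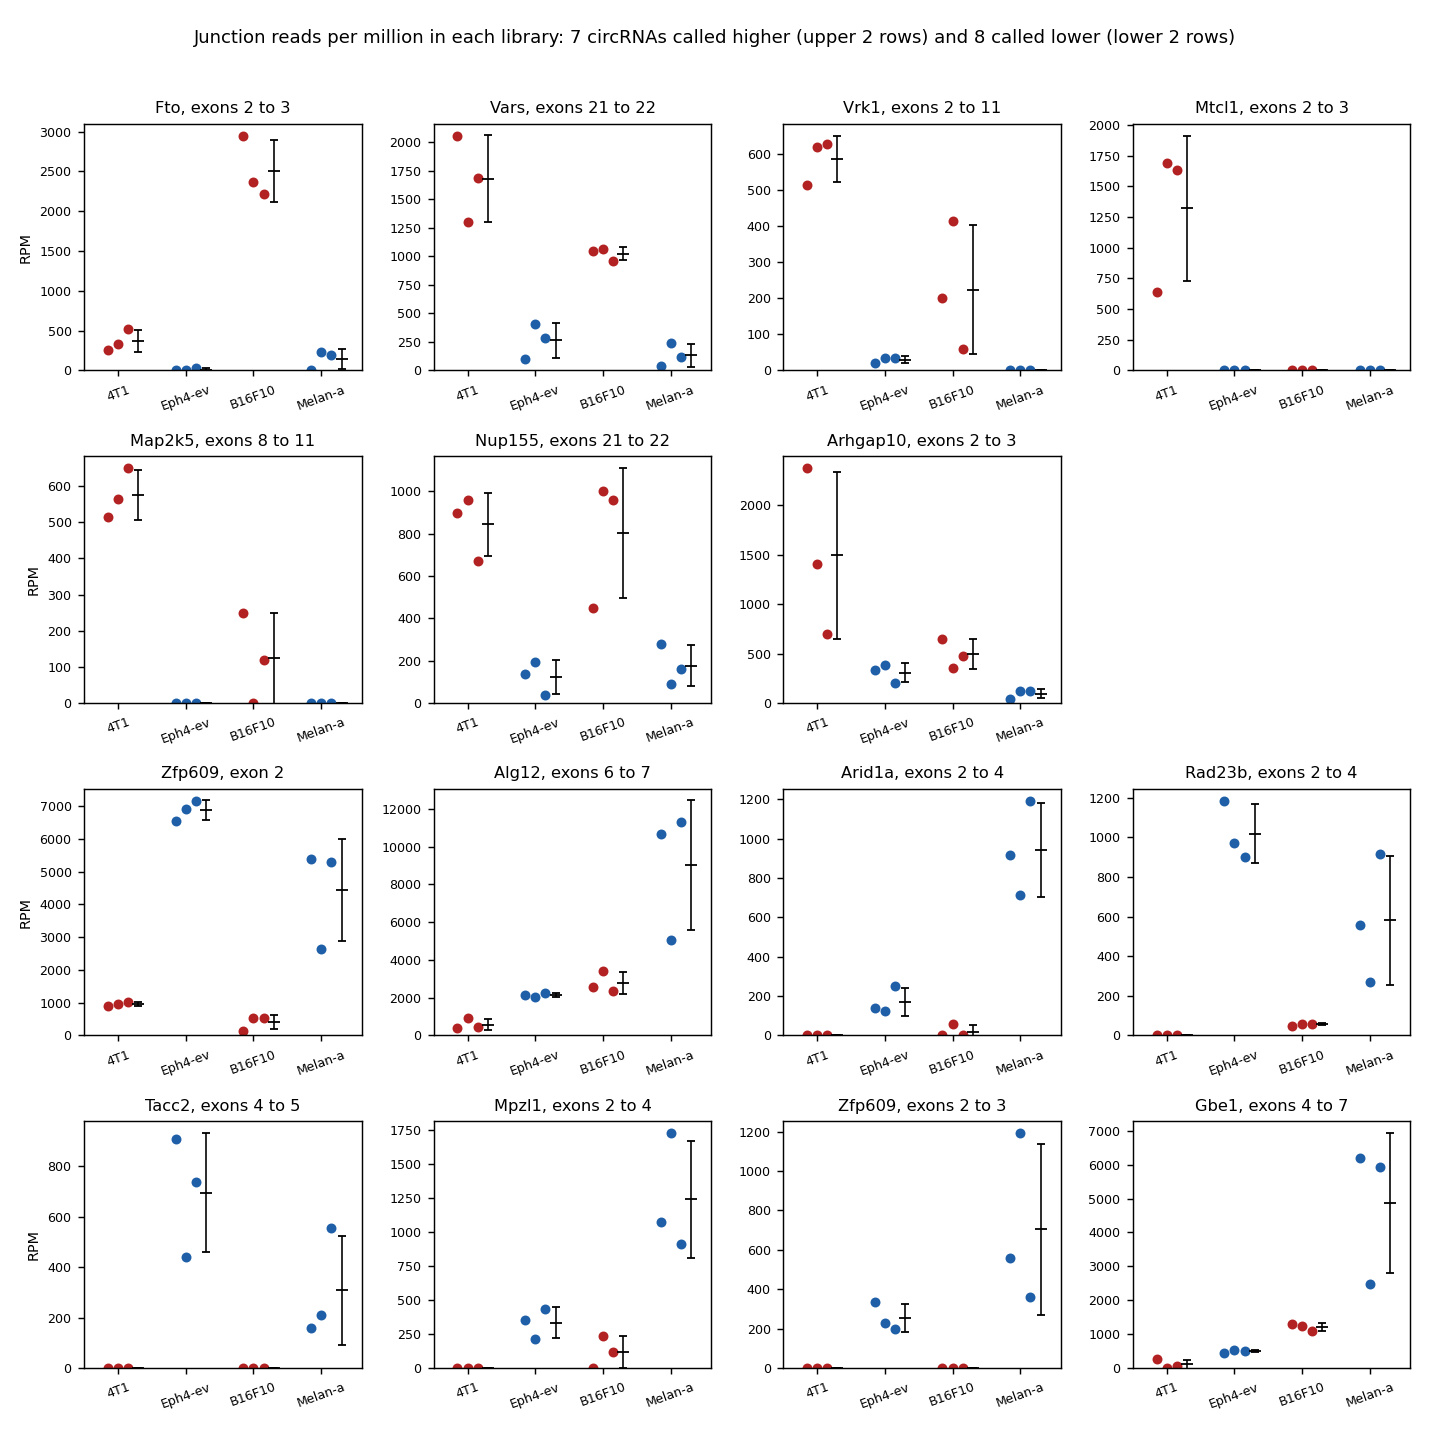
RPM in each library (vertical axis, starting at 0) for the 7 higher and 8 lower calls described above, by line; red points are tumour and blue points non-tumour libraries, and black marks give the mean ± SD of 3 libraries (bars below 0 are not drawn). Zfp609 exon 2 averages 963 RPM in 4T1 against 6874 in Eph4-ev, and Mtcl1 is at 0 in all but the 4T1 libraries.

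Among circRNAs with at least 5 reads on average in each of the 4 lines, several calls were fragile. The ring named for Tulp4, a tubby-like gene (chr17:6137211-6139156, which no single GENCODE M21 transcript matches), had 71, 33 and 147 reads in 4T1, 80, 75 and 76 in Eph4-ev, 70, 66 and 59 in B16F10, and 23, 37 and 6 in Melan-a. It was higher by 1.54 on the log2 scale (SE 0.36, edgeR adjusted p = 0.0226). The call was lost without 4T1 replicate 1 or Eph4-ev replicate 2, with line as a random effect and with a fold threshold of 1.5. The rings of Hirip3, whose protein binds the histone chaperone HIRA, Tead1, a transcription factor of the Hippo pathway, and Ankrd11, a chromatin cofactor, were higher by 1.69 (SE 0.43), 1.47 (SE 0.41) and 1.26 (SE 0.35) on the log2 scale (edgeR adjusted p = 0.0327, 0.0453 and 0.0459). These calls were lost in 9, 10 and 12 of the 12 fits that leave out a library, so all 3 are near the threshold.

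On the lower side, the ring of Enah, an actin regulator (chr1:181956394-181961919, exons 2 to 3), had 2, 1 and 15 reads in 4T1, 36, 42 and 35 in Eph4-ev, 9, 12 and 13 in B16F10, and 45, 59 and 84 in Melan-a. Its fold was nearly equal in the lineages, at -1.91 (SE 0.50) and -1.88 (SE 0.44), and -1.92 (SE 0.37) on average (edgeR adjusted p = 0.00582). The call was lost with line as a random effect. The ring of Vps45, a regulator of SNARE-mediated membrane fusion (chr3:96041338-96042928, exons 8 to 10), had 9, 4 and 32 reads in 4T1, 40, 42 and 48 in Eph4-ev, 4, 2 and 9 in B16F10, and 79, 130 and 126 in Melan-a. Its average log2 fold was -2.24 (SE 0.52) with an edgeR adjusted p of 0.0214. Within lineages the fold was -0.78 (SE 0.41, edgeR adjusted p = 0.202) for mammary and -3.87 (SE 0.46, edgeR adjusted p = 1.34e-05) for melanocyte cells, and this difference passed the edgeR interaction test (adjusted p = 0.00263).

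Whether a host's other rings moved alike varied. Arhgap10 had 6 other tested circRNAs, none of them called by edgeR (2 with folds above 0), and a summed log2 fold of 0.16 (SE 0.24, edgeR adjusted p = 0.767). Its higher call was thus of 1 ring among several. The second rings of Zfp609, Rad23b and Mpzl1, by contrast, were also called lower, and each shares an end with the first. The second rings of Vrk1 and Nup155 were not called (edgeR adjusted p = 0.235 and 0.923), and the summed reads of both hosts were higher by 2.08 (SE 0.58) and 1.47 (SE 0.33) on the log2 scale (edgeR adjusted p = 0.0425 and 0.0116). The Nup155 sum lost its call without a filter, with line as a random effect and with a fold threshold of 1.5. The Vrk1 sum differed between the lineages (edgeR interaction, adjusted p = 0.00358), at 3.94 (SE 0.58) in the mammary and 0.53 (SE 0.51) in the melanocyte lineage. Its call was lost without any 1 mammary library or Melan-a replicate 1, and with line as a random effect, a fold threshold of 1.5 or thinning.

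The other calls had adjusted p-values from 0.0141 to 0.0468 (higher, 11 circRNAs not named above or below) and from 0.00582 to 0.0488 (lower, 33). Higher were rings of Cdk19 (a Mediator kinase), Akap7 (a protein kinase A anchor), Esyt2 (a membrane contact protein), Qk (an RNA-binding protein that promotes circularisation), Rptor (a subunit of mTORC1), Tmem56, Ubp1, Epb41l1, Cenpu (a kinetochore protein), Fut10 and Stk39 (a stress-activated kinase). None of these 11 kept its call in all 12 fits that leave out a library. The Esyt2 call rests on uneven libraries, with 0, 0 and 283 reads in 4T1, 0, 13 and 21 in B16F10 and none in the non-tumour lines. It was lost without 4T1 replicate 3. Lower were the second rings of Rad23b, Mpzl1 and Vps45, 3 rings of Dtnb, and rings of the growth factor receptor Fgfr2, the transcription factors Zfpm2, Foxp1, Bach1 and Zfp532, the deadenylase Cnot6l, the ataxin gene Atxn2, the initiation factor subunit Eif3a and the helicase Dhx15. Others were from Spag9, Acer3, Whrn, Atrnl1, Vapa, Cd2ap, Myo5b, Cacul1, Glt1d1, Uck2, Rasa2, Dst, Ptchd4, Clip4, Pgd, Fkbp5 and Hp1bp3. Of the 33, only Zfpm2 and the second Vps45 ring kept the call in all 12 such fits. Rptor, Fut10, Zfpm2, Acer3, Fgfr2, Myo5b, Ptchd4, Clip4 and Hp1bp3 had no melanocyte reads.

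The libraries of the 2 states did not overlap in either lineage, with every tumour library above, for 24 tested circRNAs (1.58%), and with every tumour library below for 51 (3.36%). Of the calls, 10 of 25 and 27 of 44 were of this kind.

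The 6 most abundant circRNAs were not called by edgeR, although other settings called 4 of them. That of Pvt1, a long noncoding gene (chr15:62107148-62107465), averaged 17612 ± 2002 RPM in 4T1, 14099 ± 1759 in Eph4-ev, 12516 ± 1470.1 in B16F10 and 22266 ± 3729.9 in the Melan-a libraries (SD, n = 3). Its average effect had an edgeR adjusted p of 0.308. Those of the transcription factor genes Elf2 and Nfix had adjusted p-values of 0.111 and 0.754, that of Gigyf2, a translational repressor, 0.183, that of Eefsec, the selenocysteine elongation factor, 0.557, and that of the zinc finger gene Zfp516 0.386. The average of the within-lineage effects called Pvt1, Elf2 and Gigyf2 lower, with log2 folds of -0.40, -0.62 and -0.54, and without a filter Elf2 and Gigyf2 were lower by edgeR as well (-0.75 and -0.67). Limma-voom called Gigyf2 lower (-0.68) and Eefsec higher (0.86). The Nfix ring stood at 17749 ± 1724 and 11992 ± 765 RPM in 4T1 and Eph4-ev but at 675 ± 85.0 and 689 ± 239 in B16F10 and Melan-a.

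By its title the study sought tumour-specific circRNAs. Counting a circRNA as found when it had a read in at least 2 of 3 libraries of both lines of a state and none in the 6 libraries of the other, 16 were found only in the tumour lines and 64 only in the non-tumour lines. The read counts chose them, so they are described without a test. The split changed with depth: thinned to 15572 reads of the whole table per library, the numbers were 35 and 31. Both numbers were small and depended on the rule. Stricter rules can only lower them: they fell to 0 and 6 when a read was required in all 3 libraries and to 6 and 22 with at least 2 reads in 2 of 3. With a library left out, 2 libraries of each line were still required. Leaving out a library of a state can thus only lower the number of that state, and leaving out a library of the other state can only raise it. The tumour number moved to 10 without 4T1 replicate 1, 2 or 3, to 28 without Eph4-ev replicate 2, to 6 without B16F10 replicate 1 and to 5 without B16F10 replicate 3. The non-tumour number moved to 39 without Eph4-ev replicate 2, 98 without B16F10 replicate 1, and 33, 19 and 30 without Melan-a replicates 1, 2 and 3.

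After Map2k5, the tumour-only circRNAs with the most reads came from Arhgap32, a GTPase-activating protein gene (6, 0 and 3 reads in 4T1, 5, 4 and 4 in B16F10), and Klhl12, an adaptor of the ubiquitin ligase subunit Cul3 (5, 3 and 4, and 4, 0 and 4). Their bounds were at least 13.7 and 12.5-fold higher in the tumour lines. Those from Ncoa1, a nuclear receptor coactivator, and Klhl22, another Cul3 adaptor, had 18 and 17 reads in all, too few to be tested. On the non-tumour side, Tacc2 and the longer Zfp609 ring were followed by exon 2 of Foxo1, a forkhead transcription factor gene (chr3:52345039-52346390). It had 13, 10 and 6 reads in Eph4-ev and 11, 10 and 9 in Melan-a, and was at least 10.5-fold lower in the tumour lines. Rings of Fam204a and of the arginyltransferase gene Ate1, with 40 and 35 reads in all, were too sparse to be tested.

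Summed over the circRNAs of a host gene, 19 of 1268 hosts (1.5%) were higher and 43 (3.39%) lower in the tumour lines, 4.89% in either direction, with a median log2 fold of -0.06. Scaling by total reads alone gave 21 and 28 in place of 19 and 43. Without 1 library, the higher number became 11 when 4T1 replicate 1 was left out, 9 for 4T1 replicate 3, 30 for Melan-a replicate 2, and 9, 11 and 10 for the Eph4-ev libraries in order. The lower number became 28 for 4T1 replicate 1, 23 for 4T1 replicate 3, and 19, 23 and 22 for the Eph4-ev libraries. Each of the 12 pathway lists below held 0 to 4 called hosts.

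Of 24 tested splicing and RNA-binding regulators, edgeR called 1 higher (Fto) and 1 lower (Cpsf6, a subunit of the cleavage factor for polyadenylation), with a median log2 fold of -0.07. Ptbp3 was also lower by DESeq2 and limma-voom, and limma-voom further called Qk higher and Gigyf2 lower. Cpsf6 had 22, 20 and 63 reads in 4T1, 136, 189 and 143 in Eph4-ev, 40, 36 and 44 in B16F10, and 97, 78 and 95 in Melan-a. The change was small (log2 fold -0.94, SE 0.24, edgeR adjusted p = 0.0278), and the call was lost when any 1 of the 6 mammary libraries was left out, with total reads alone, with line as a random effect and with a fold threshold of 1.5. Of 38 chromatin regulators, edgeR called Arid1a alone, lower (median -0.03), and DESeq2 also called Chd2 lower. Of 13 DNA repair genes, edgeR, DESeq2 and limma-voom each called Rad23b alone, lower (median 0.22). Of 14 nuclear pore and transport genes, each of these tools called Nup155 alone, higher (median -0.09). Among 14 aminoacyl-tRNA synthetases and translation factors, Vars rose (log2 fold 2.23, SE 0.41, edgeR adjusted p = 0.00231), and limma-voom also called Eefsec higher. Eif3a fell, with 2, 3 and 0 reads in 4T1 against 23, 28 and 31 in Eph4-ev and 1, 0 and 3 in B16F10 against 10, 14 and 17 in the Melan-a libraries. The fold on the log2 scale was -2.74 (SE 0.66, edgeR adjusted p = 0.0204), and the call was lost when any 1 of the Eph4-ev libraries was left out or the libraries were thinned to equal depth.

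Of 33 growth factor and MAPK/PI3K signalling genes, edgeR called 1 higher (Map2k5) and 3 lower, among them Fgfr2 and Rasa2, an inhibitor of Ras (median -0.11). DESeq2 also called Map2k2 and Stk39 higher and Map4k3 lower, and limma-voom also called Map2k2, Stk39, Met and Rptor higher. Fgfr2 rings had 78, 55 and 55 reads in Eph4-ev and none elsewhere, so the call rests on mammary reads. Against a floor of 3 counts over the 6 tumour libraries, scaled by the totals of all 12, they were at least 33.4-fold lower in the tumour lines (edgeR adjusted p = 0.00201). DESeq2 and the average of the within-lineage effects did not call Fgfr2. Rasa2 had 102 to 276 reads in 4T1, 449 to 519 in Eph4-ev, 42 to 49 in B16F10 and 103 to 186 in Melan-a. Its fold on the log2 scale was -0.74 (SE 0.21, edgeR adjusted p = 0.0492), and its call was lost without 9 of the 12 libraries in turn (4T1 replicates 2 and 3, Eph4-ev and B16F10 replicates 1 to 3, Melan-a replicate 1) and with other settings, such as RLE factors or thinning. Of 8 TGF-beta and BMP genes, only Smad1, a signal transducer of BMP receptors, was called, lower (log2 fold -1.01, SE 0.28, edgeR adjusted p = 0.0441). The Smad1 call too was lost without most libraries (all 4T1 and Eph4-ev replicates, B16F10 replicates 1 and 3, Melan-a replicate 3) and, like that of Rasa2, with RLE factors or thinning.

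Of 41 membrane traffic genes, Vps45 and Vapa, a membrane tether of the endoplasmic reticulum, fell by edgeR (median -0.26), Exoc6b was also lower by DESeq2 and limma-voom, and the effects on Vps45 and Vapa differed between lineages (edgeR interaction, adjusted p = 3.15e-05 and 0.000342). Vapa had 26, 31 and 74 reads in 4T1 against 404, 464 and 424 in Eph4-ev, and 44, 48 and 29 in B16F10 against 55, 83 and 91 in Melan-a. The mammary difference was the large one, and the average call (log2 fold -1.38, SE 0.33, edgeR adjusted p = 0.0194) was lost without any 4T1 library, without Eph4-ev replicate 1 or 2 and with a fold threshold of 1.5. Of 43 hosts of well described circRNAs, edgeR called Tulp4 higher and Zfp609, Cpsf6 and Vapa lower (median -0.07). DESeq2 also called Hipk2 and Zfp148 lower, and limma-voom Gigyf2, Spag9 and Zfp148. The Tulp4 host call was lost without 4T1 replicate 1 or 3, Eph4-ev replicate 1 or 2, B16F10 replicate 1 or Melan-a replicate 1, with line as a random effect and with a fold threshold of 1.5. This list holds genes already known to stand out in these tables.

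No member was called by edgeR among 21 cell cycle and division genes, 39 ubiquitin system genes and the 1 tested antigen presentation gene, Canx. In these lists, 6, 4 and 0 had an unadjusted p under 0.05, DESeq2 called 3 (Cdk19 and Pole2 higher, Cdk8 lower), 0 and 0, and limma-voom called 1, 0 and 0. The cell cycle genes had the highest median of any list with more than 1 tested member, 0.50 against -0.06 over all hosts. Of their 21 folds, 15 were above 0, and the list was not tested as a set. Cdk19 came closest, with 20, 14 and 17 reads in 4T1, 13, 9 and 0 in Eph4-ev, 6, 5 and 5 in B16F10, and 0, 0 and 3 in the Melan-a libraries. Its fold on the log2 scale was 2.52 (SE 0.73, edgeR adjusted p = 0.0507). It passed with DESeq2 and limma-voom. Cdk8, its close relative, stood at -0.65 on the same scale (SE 0.23, edgeR adjusted p = 0.117).

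**Figure D4:**
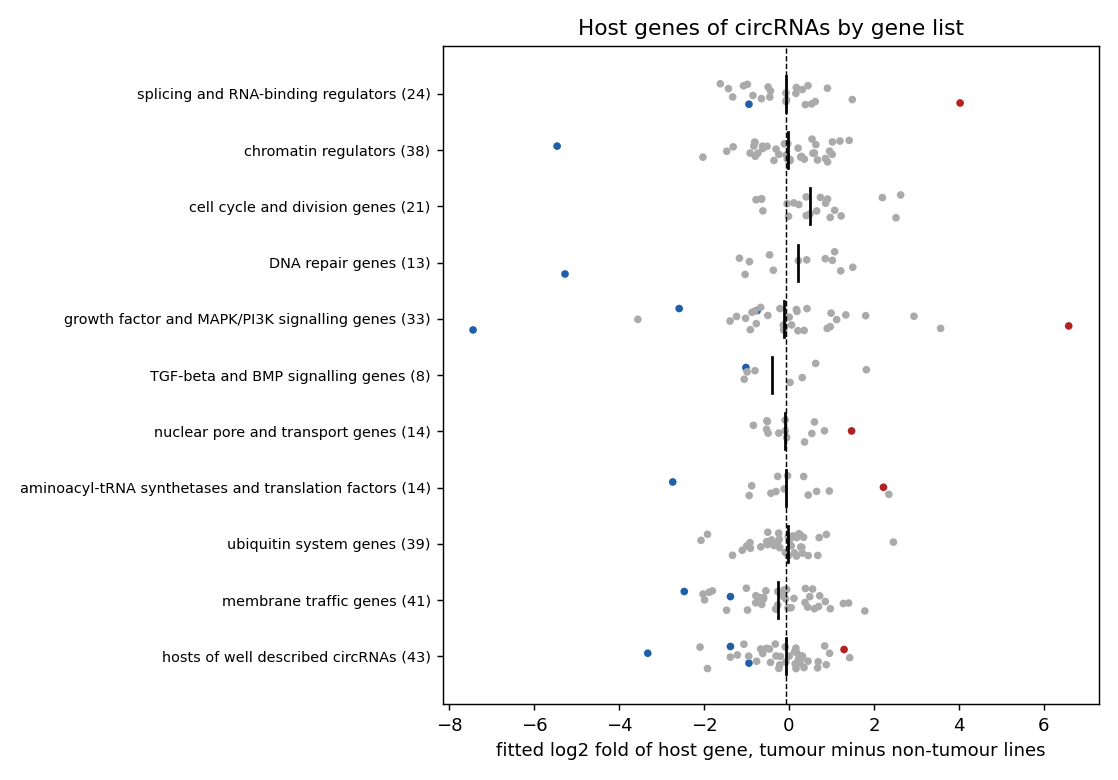
Fitted log2 fold of each tested host gene (horizontal axis, tumour minus non-tumour lines), by pathway list, with the number tested in parentheses; red points were called higher, blue points lower, grey points not called. Black bars are the medians of lists with more than 1 tested member, from -0.39 for TGF-beta and BMP genes to 0.50 for cell cycle genes, and the dashed line is the median of all 1268 hosts, -0.06.

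The lineage labels could be checked only in part, since the joined rows leave out circRNAs listed for melanocytes alone. The 145 joined rows that name several hosts were also left out of the gene counts below. Of 28 melanocyte and pigment genes, 7 had reads (Mitf, Myo5a, Ap3b1, Hps1, Hps3, Hps5 and Pax3), summing to 169 to 807 RPM in 4T1, 1008 to 1465 in Eph4-ev, 1649 to 2302 in B16F10 and 917 to 1758 in Melan-a. The defining genes Tyr, Dct, Mlana and Pmel were at 0 in these rows. None of the 4 tested was called by edgeR, none had an unadjusted p under 0.05, and DESeq2 and limma-voom called none. Of 38 epithelial genes, 16 had reads, with Epcam and Cdh1 among them and Krt8 and Krt18 at 0. They summed to 5394 to 7499 RPM in 4T1, 7723 to 8332 in Eph4-ev, 1138 to 2184 in B16F10 and 566 to 795 in Melan-a. Of 11 tested, Myo5b fell (edgeR adjusted p = 0.0488), on mammary reads alone, and the call was lost when any 1 mammary library was left out. In rows naming a single host, only Zeb1, at 118 to 176 RPM in Eph4-ev and 0 elsewhere, had reads among 23 mesenchymal genes. A ring named for Mir5129 and Zeb2 together had 2, 3 and 0 reads in 4T1, 5, 2 and 4 in B16F10 and none in the non-tumour lines. Immune and keratinocyte genes had none. The part of these levels in the calls was not tested.

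The structure of the called rings is given without a test. Exons could be matched for 24 of the 25 higher and all 44 lower circRNAs. The median exonic length was 274.5 bases with 2 exons for the higher calls and 409 bases with 3 exons for the lower, against 431 bases and 3 exons over 1496 matched circRNAs. The start codon lay in 20.8% of the higher, 18.2% of the lower and 20.7% of all. The second exon opened 41.7% of the higher rings, 59.1% of the lower (26 of 44) and 43.8% of all.

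The number of circRNAs detected with at least 1 read moved in opposite directions in the lineages, while the number with at least 2 reads was higher in both tumour lines. Thinned to 13731 joined reads, 4T1 showed 3026, 2878 and 2931 circRNAs against 3400, 3514 and 3102 for Eph4-ev, and B16F10 showed 2638, 2554 and 2562 against 2287, 2515 and 2250 for Melan-a. The tumour line was lower in the mammary lineage by 394 and higher in the melanocyte lineage by 234, without overlap in either. The average was -79.8 (exact two-sided permutation within lineage, p = 0.53, where 400 arrangements allow 0.005 at the smallest). Counting those with at least 2 reads, the tumour line was higher by 86 in the mammary and by 65 in the melanocyte lineage, an average of 75.5 (exact permutation p = 0.01). On this count the lineages did not overlap except in B16F10 replicate 2, at 1683 against 1700 in Melan-a replicate 2. Every non-tumour library was thinned from more joined reads than any tumour library of its lineage, and B16F10 replicate 3 was not thinned at all. The part of this in either count was not tested. The 10 most abundant circRNAs held 8.05% to 9.16% of joined reads in 4T1, 8.27% to 9.0% in Eph4-ev, 13.4% to 13.7% in B16F10 and 14.4% to 16.2% in Melan-a, an average difference of -0.89 percentage points (exact permutation p = 0.105). The 50 most abundant held less in every tumour library than in any non-tumour library of its lineage, an average difference of -2.01 points (exact permutation p = 0.005, the smallest that 400 arrangements allow). These permutations treat libraries, not lines, as the units.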

How the data were processed

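Total RNA of each line was treated with RNase R and sequenced, and circRNAs were detected with CIRI2 and CIRCexplorer2, per the labels' protocols. How the 2 callers were combined and which filters were used is not given in the sources used here. The submitters' processing notes name BWA, TopHat, DESeq, DESeq2 and edgeR with no role, and the build mm10. The deposited counts are whole junction reads per circRNA and library, 1 table per lineage, per the file headers. The deposited RPM values are the authors' counts scaled to a common total within each library, and count equals RPM times the total in every library.

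The 2 tables were joined on the circRNA name. Library sizes were the totals of the whole tables (15572 to 56649 reads) with TMM factors. CircRNAs were tested after a filter (minimum count 5, minimum total 10, lines as groups), which reads in 1 line could pass. Tests used edgeR 4.0.16 (quasi-likelihood, lineage plus state, R 4.3.3). Hosts were tested on counts summed per gene, without the 145 joined rows that name several hosts. A fit with 4 line means gave the within-lineage effects and the interaction. Each SE is the size of the edgeR log2 fold divided by the square root of its F statistic. It is an approximation that can fail for folds near 0 or lines without reads. P-values were adjusted by Benjamini-Hochberg over all features tested. DESeq2 1.42.0, limma 3.58.1 (voom), other scalings, filters and models, thinning and leaving out each library were tried as alternatives. Requiring the filter in each lineage was chosen after seeing the data. Single values per library were tested by exact permutation within lineage. A fold against 0 reads is a bound that puts 3 counts, scaled by total reads, in place of the 6 empty libraries, and ratio intervals are exact at 95%. Bounds and pooled ratios add up the reads of both lineages, without the lineage block.

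The fits were tested on simulated data: over 1518 circRNAs, the average fit recovered 22%, 58%, 86% and 100% of 50 circRNAs changed by 2, 4, 8 and 16-fold, and called 4 of 1318 unchanged ones. The interaction fit recovered 0%, 18%, 30% and 40% at these sizes, with 8 false calls among 1318. Over 1268 hosts, the average fit recovered 34%, 62%, 94% and 100%. In the simulation, unchanged features had the same mean in both lines of a lineage, with the spread found between libraries of a line. Changes for the average fit were equal in both lineages. These rates therefore do not cover differences between lines apart from tumour state, or effects that are unequal between lineages.

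CircRNAs were named by rule: the 8 called in each direction with the smallest p, the 4 in each direction with the largest fold among those called with 5 reads on average in every line, the 6 most abundant, the 5 found only in each state with the most reads, and the 2 with the smallest interaction p among opposite folds. Hosts were the called members of each list (up to 4) and the 2 with the smallest p. Other calls are named without a rule, after their values were seen. A few results that the rule names are not reported here. The members, lists and rules were chosen with earlier results of these data known. No genome sequence was used here, and exon junctions came from GENCODE M21 transcripts.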

Additional observations from a re-analysis of the deposited data

Results flagged for a closer look

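The effect of tumour state differed between the lineages for the circRNAs and hosts below (edgeR interaction test, melanocyte minus mammary log2 fold). The Eif5b,Rev1 circRNA (chr1:38053616-38085652) went opposite ways, with 9, 4 and 23 reads in 4T1, 168, 143 and 158 in Eph4-ev, 210, 217 and 191 in B16F10, and 97, 145 and 56 in the Melan-a libraries. Its folds were -2.89 (SE 0.34) for mammary and 1.67 (SE 0.29) for melanocyte cells, a difference of 4.56 (adjusted p = 5.96e-07).

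For the abundant Eefsec ring the difference was 1.84 (adjusted p = 0.000654), and for that of Pvt1 it was -0.95 (adjusted p = 0.016), both by the edgeR interaction test. Among calls of the average effect, it was -3.09 for the Vps45 circRNA (adjusted p = 0.00263), -3.67 for the Vps45 host sum (adjusted p = 3.15e-05), 1.99 for Vapa (adjusted p = 0.000342), 1.40 for Tulp4 (adjusted p = 0.0449) and -3.41 for the Vrk1 host sum (adjusted p = 0.00358), all by the same edgeR test.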

How the results depend on the processing

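The reported fit gave 25 higher and 44 lower circRNAs, and 19 higher and 43 lower hosts. With RLE factors, total reads, joined totals, no filter, a minimum count of 10, thinning, or rows of either table, the circRNA counts stayed within 1.5 times. They were 47 higher with DESeq2 and 41 with limma-voom, 61 and 115 (higher and lower) with the average of within-lineage effects, 15 and 19 with line as a random effect, 1 and 0 with sums per line, 15 and 20 with a fold threshold of 1.5, and 11 and 28 with the filter in each lineage. Leaving out a library gave 9 to 27 higher and 15 to 46 lower. For hosts the higher counts were 31 with no filter, 41 with DESeq2, 39 with limma-voom, 58 with the average, 0 with sums per line (where 40 of 1268 had an unadjusted p under 0.05), 8 with the fold threshold and 10 with the filter in each lineage. The lower counts were 28 with total reads alone, 106 with the average, 25 with the random effect, 0 with sums per line, 20 with the fold threshold and 22 with the filter in each lineage. Leaving out a library gave 9 to 30 and 19 to 60 hosts, and 100 to 178 circRNAs for the difference between lineages (163 in the reported fit). Sums per line leave fewer samples. The fits without a library also tested more features (1895 to 2028 circRNAs and 1436 to 1513 hosts, against 1518 and 1268), and the cause was not tested there or for the other settings.

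Same-numbered libraries of a lineage correlated at -0.077 to 0.031 in their deviations, which gave no sign of pairing. This check cannot exclude pairing, since the median tested circRNA had 7.58 reads on average per library. The labels do not say whether the numbers pair the libraries. With replicate number as a block, 7 circRNAs were higher and 12 lower, 6 hosts higher and 11 lower, and 132 circRNAs differed between lineages. The Nup155, Tulp4, Arhgap10 and Foxo1 rings and the Nup155 and Tulp4 hosts were among the calls lost.

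CircRNAs found only in the tumour or non-tumour lines numbered 16 and 64, 0 and 6 with a read in all 3 libraries, 6 and 22 with 2 reads, 35 and 31 thinned, and 5 to 28 and 19 to 98 without 1 library. The detection difference of -79.8 became 75.5 with at least 2 reads, and the top-10 share of -0.89 points became -2.01 for the top 50. Of named results, the Nfix fold (0.15) became -0.012 without a filter, and the Eif5b,Rev1 fold (-0.45) became 0.76 with limma-voom, 0.41 with the random effect and 0.0093, 0.15 and 0.069 without 4T1 replicate 1, 2 and 3 (lowest without 1 library -1.09). Of the settings tried on named circRNAs, 707 kept direction and call, 104 lost the call, 7 gained it and 6 reversed. The shallowest library, 4T1 replicate 1 with 15572 reads, limits what can be seen at low counts.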

Other observations

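CircRNAs outside the join could not enter the common effect, and some were abundant. The circRNA of Col28a1, a collagen gene, had no read in B16F10 and 335, 452 and 354 in the Melan-a libraries, in the melanocyte table alone. That of Pmel, a melanosome matrix protein gene, had 201, 140 and 147 reads in B16F10 against 112, 214 and 87 for Melan-a. That of Slc7a11, the cystine transporter gene, had 7, 6 and 8 reads in B16F10 against 141, 11 and 173 for Melan-a. In the mammary table alone, the circRNAs of Nf2 (a tumour suppressor gene), Lin54 and Ctdp1 had 16 reads each over the 6 libraries, those of Nf2 all in Eph4-ev replicate 3. Eph4-ev replicate 3 also had the lowest share of joined reads of the mammary libraries, 96.6%.

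Some circRNAs were uneven between libraries of a line. With at least 50 reads in 1 library and 0 in another, there were 3 in 4T1, 3 in Eph4-ev, 1 in B16F10 and 1 in Melan-a, of which only that of Esyt2 was called.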
